A study of Rattus norvegicus with 56 samples.

Results

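The synaptic vesicle and release machinery was described here through 43 genes, out of the 16581 gene symbols that the array's probes named. The genes encode vesicle membrane proteins, synapsins, calcium sensors with C2 domains, SNARE proteins and their regulators, Rab3 proteins with an effector, active zone proteins, vesicular glutamate transporters and endocytic proteins. A gene entered by its name alone, with no use of its signal, and was read from its brightest probe. All 43 had a probe and all 43 passed the filter on dim probes in hippocampus and in parietal cortex.

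Neurotransmitter is stored in synaptic vesicles, which synapsins tether near the terminal membrane and which Rab3 proteins, RIMs and Munc13 bring to the active zone and prime for fusion. There the vesicle SNARE synaptobrevin (Vamp) zips up with syntaxin and SNAP-25 of the plasma membrane, complexin holds and assists the complex, and calcium binding to a synaptotagmin sets off release. Amphiphysin, dynamin and synaptojanin then help to retrieve the vesicle membrane. Nearly every synapse uses these proteins, but their paralogs are divided among neuron types and brain regions, and in hippocampus and neocortex most excitatory terminals fill their vesicles through VGLUT1 (*Slc17a7*), whereas VGLUT2 (*Slc17a6*) is best known from thalamic and other subcortical inputs.

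The animals were male Long-Evans rats given either intermittent theta burst stimulation (iTBS), in which a coil over the head delivers magnetic pulses in short repeated bursts, or a sham session with the coil away from the head. The young animals were aged 6 to 7 months, and the old ones 26 to 27 months. From their water maze scores the aged rats were classed as aged unimpaired (AU) or aged impaired (AI). Total RNA of hippocampus and of parietal cortex was hybridised to separate 1-colour Agilent arrays. The groups, each an animal count with both regions, were 4 young sham (Y_Sham), 4 young stimulated (Y_iTBS), 4 AU_Sham, 5 AU_iTBS, 4 AI_Sham and 3 AI_iTBS rats, 12 sham and 12 stimulated in all. Every animal, sham or stimulated, was lightly anaesthetised with isoflurane and dexmedetomidine during its session, and tissue was taken 48 h afterwards. Only males were used and no unhandled group was compared here, so that the sham rats stand for coil-free anaesthesia rather than for untouched animals.

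Values are log2 signals normalised within each array, where 0 is the mean of all probes of that array and a step of 1 is close to a 2-fold difference in signal. Levels of different probes cannot be compared with each other. The limma test was run over all probes, 32417 in hippocampus, 32603 in cortex and 33720 for the difference between regions, and a gene was called where its p-value adjusted by Benjamini-Hochberg over all of those probes was under 0.05. Between 60.7% and 69.7% of probes were well above background on each of the 48 arrays used. The arrays were scanned in 3 batches: 15 animals had both regions in the first, 8 had hippocampus and cortex in different later batches, so that in those 8 region and batch cannot be told apart, and 1 had both in the same later batch. No animal had both regions on the same slide, so region and slide cannot be told apart within any animal. The mean of the 43 genes had an SD of 0.137 between animals of a group in hippocampus and 0.0897 in cortex.

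In the comparisons as fitted, members were called between regions alone. RefSeq (assembly GRCr8) gave a promoter window, 250 bases before to 50 after the start of a transcript, for 33 of the 43 genes. Of these, 29 lay within 1000 bases of the gene's outermost annotated start and were read; those of *Syt2*, *Cplx2*, *Dnm1* and *Rab3c* lay further inside their genes and were left out. Shown are the windows of the 3 genes with the largest sham differences between regions, among genes called in both arms with a window read. *Syt4*, on chromosome 18, was left out of that choice. The 3 genes were all lower in hippocampus than in cortex, and their windows differ in make-up. That of *Stx1a* lies on the minus strand at chr12:27306422-27306721, that of *Rab3b* on the plus strand at chr5:128858841-128859140 and that of *Sncb* on the plus strand at chr17:9851684-9851983. Capitals mark the GC box GGGCGG and the core of the cyclic AMP response element, TGACG, searched on both strands.
Stx1a: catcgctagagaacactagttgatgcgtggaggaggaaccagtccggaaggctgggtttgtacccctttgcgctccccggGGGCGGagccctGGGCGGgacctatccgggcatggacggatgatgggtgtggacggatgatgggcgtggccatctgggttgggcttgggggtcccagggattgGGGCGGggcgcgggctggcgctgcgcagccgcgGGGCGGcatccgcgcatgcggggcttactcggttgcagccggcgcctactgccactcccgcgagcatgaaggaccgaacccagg
Rab3b: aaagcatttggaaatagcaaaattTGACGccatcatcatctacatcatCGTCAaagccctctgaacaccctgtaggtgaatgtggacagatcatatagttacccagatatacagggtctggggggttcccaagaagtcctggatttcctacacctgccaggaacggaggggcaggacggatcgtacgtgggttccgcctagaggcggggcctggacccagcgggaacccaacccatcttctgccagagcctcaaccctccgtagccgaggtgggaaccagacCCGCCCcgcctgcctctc
Sncb: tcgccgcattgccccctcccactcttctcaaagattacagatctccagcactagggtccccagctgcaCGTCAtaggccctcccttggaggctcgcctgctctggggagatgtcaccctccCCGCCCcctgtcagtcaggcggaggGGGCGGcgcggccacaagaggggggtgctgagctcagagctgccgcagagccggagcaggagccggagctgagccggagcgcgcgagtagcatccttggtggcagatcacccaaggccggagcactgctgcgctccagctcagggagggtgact
The *Stx1a* window held 4 GC boxes and no response element core. The *Rab3b* window held 1 GC box and 2 cores, and the *Sncb* window 2 GC boxes and 1 core. The window of *Syt4*, not shown, held no GC box and 2 cores. Across the 29 windows, 22 (75.9%) held a GC box, against 33.6% of the 28321 windows of that length and distance in the table, and 11 (37.9%) held a response element core, against 21.5%. The full response element TGACGTCA, which contains the core, occurred in the windows of *Syn1* and *Vamp1* (6.90% of the members' windows, 1.87% of all). The letters TATAAA occurred in none of the 29, against 14.3% of all windows. The median GC content was 64.7% over the members' windows and 51.7% over all. These counts describe letters in the windows; binding was not measured.

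In sham rats, 20 of the 43 genes differed between hippocampus and parietal cortex: 18 were lower in hippocampus, led by *Stx1a*, *Syt2* and *Doc2a*, and 2 were higher, *Doc2b* and *Syt7*. Over all probes tested, 35.6% were called in this comparison, 16.5% as higher in cortex and 19.1% as higher in hippocampus. The members' calls thus lay mostly on the cortex side, where all probes divided nearly evenly, and the median difference, hippocampus minus cortex within each animal, was -0.19 over the members and 0.027 over all probes. The stimulated rats, which are different animals, also gave 20 calls, 18 lower and 2 higher in hippocampus, with a median of -0.28 over the members and 0.011 over all probes. There, 32.4% of all probes were called, 15.4% as higher in cortex and 17% as higher in hippocampus. The calls of 17 genes were shared, with the same sign, which is 85% of the sham calls and 85% of the stimulated calls. Over the 43 genes the differences of sham and stimulated animals had the same sign for 37, and correlated with r = 0.927 across genes, which are not independent of each other. Called in sham rats alone were *Syngr3*, *Syn2* and *Syt7*, and in stimulated rats alone *Syngr1*, *Syn1* and *Slc17a6*.

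**Figure D1:**
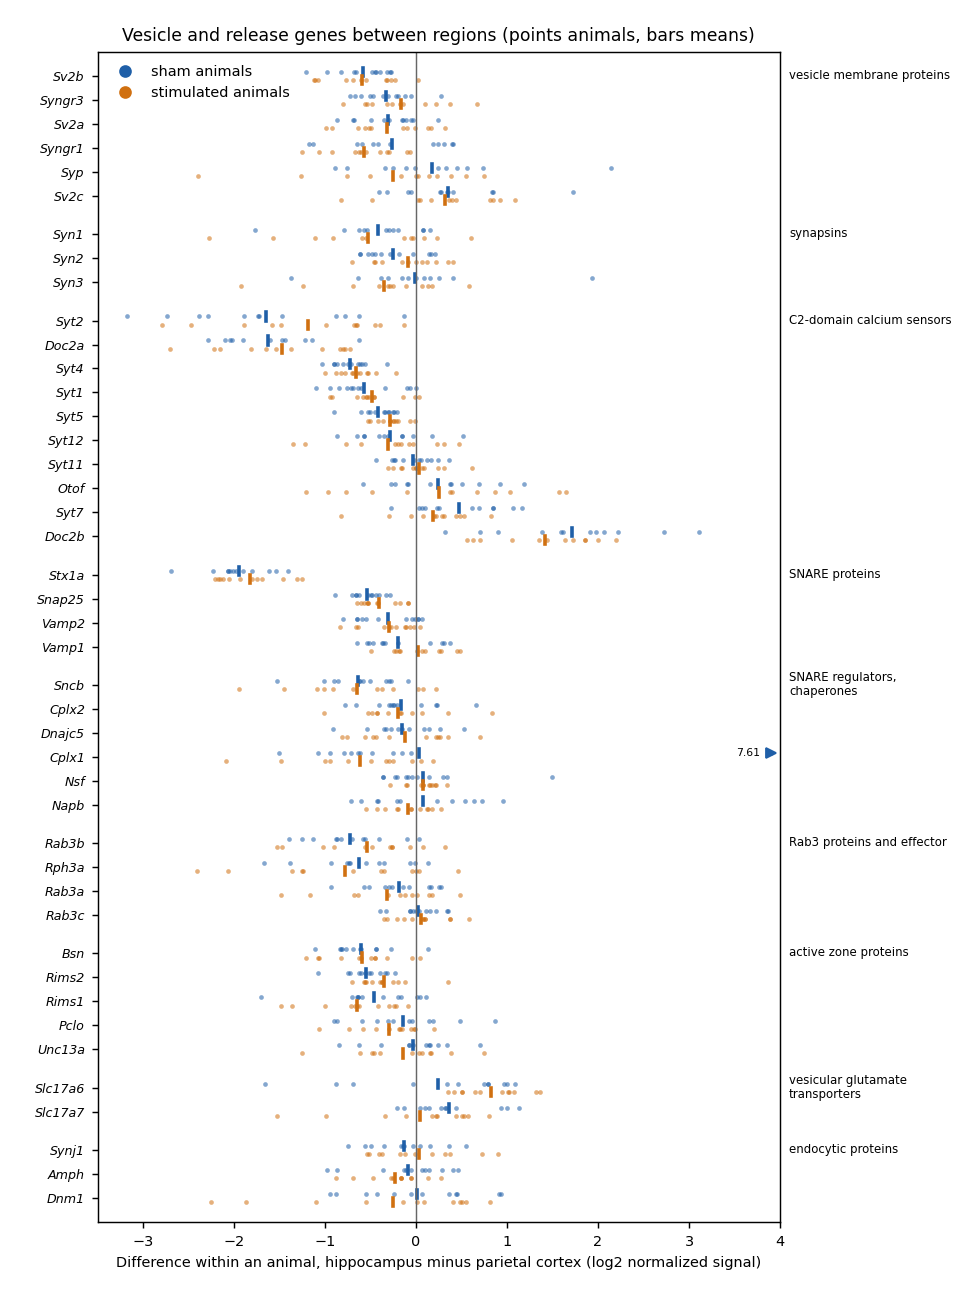
Each row is a gene of the set, grouped by role, and the horizontal axis is the difference between hippocampus and parietal cortex within an animal on the log2 scale of normalised signal. Points are animals (blue sham, orange stimulated) and bars are means. *Stx1a*, *Syt2*, *Doc2a* and *Syt4* lie left of 0 in every animal of both arms and *Doc2b* right of 0, and 1 sham animal of *Cplx1* lies beyond the axis at 7.61.

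The SNARE proteins form the fusion complex itself. *Stx1a* (syntaxin-1A, the plasma membrane SNARE of most fast synapses) had a signal of 7.05 to 8.54 (median 7.76) in the hippocampus of 12 sham rats and 9.33 to 10.13 (median 9.69) in their cortex. In the stimulated rats it ranged from 7.30 to 8.65 (median 7.90) in hippocampus and from 9.37 to 10.08 (median 9.76) in cortex. The regions did not overlap in either arm. The difference was -1.95 (SE 0.094, adjusted p = 8.76e-13) in sham and -1.82 (SE 0.096, adjusted p = 4.9e-12) in stimulated animals, and in each group of rats its mean lay between -2.12 and -1.63. *Snap25* (SNAP-25, the palmitoylated partner of syntaxin) was lower in the hippocampus of 12 of 12 sham and 12 of 12 stimulated rats, at 8.62 to 9.16 against 9.23 to 9.65 in sham cortex, with a difference of -0.54 (SE 0.062, adjusted p = 4.97e-07). *Vamp2* (synaptobrevin-2, the main vesicle SNARE of the forebrain) differed by -0.31 (SE 0.095, adjusted p = 0.015). Its paralog *Vamp1*, best known from spinal cord and brainstem, was not called, at -0.19 (adjusted p = 0.16) in sham and 0.03 (adjusted p = 0.88) in stimulated rats.

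Of the 10 calcium sensors with C2 domains, 2 were called higher and 5 lower in the hippocampus of sham rats. The Doc2 proteins are high-affinity calcium sensors for spontaneous and asynchronous release, and the paralogs lay on opposite sides. *Doc2a* ranged from 2.64 to 3.91 (median 3.26) in the hippocampus of 11 sham rats and from 4.51 to 5.55 (median 4.74) in the cortex of 12; the spots of 1 young sham hippocampus were left out, so its difference rests on 11 animals. That difference was -1.60 (SE 0.15, adjusted p = 4.57e-08), lower in 11 of 11, and it was -1.41 (SE 0.145, adjusted p = 2.29e-07), lower in 12 of 12, in stimulated rats. *Doc2b* ranged from -1.20 to -0.02 (median -0.49) in sham hippocampus and from -3.21 to -1.07 (median -2.24) in sham cortex. It was higher in hippocampus within 12 of 12 sham and 12 of 12 stimulated animals, by 1.71 (SE 0.204, adjusted p = 9.42e-07) and 1.43 (SE 0.208, adjusted p = 1.58e-05). *Doc2b* was a dim probe: in cortex it was well above background on 7 of 12 sham arrays (3 of 4 Y_Sham, 2 of 4 AU_Sham and 2 of 4 AI_Sham) and 10 of 12 stimulated ones (1 of 3 AI_iTBS), so the size of its difference rests partly on cortex values that were not well above background.

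Among the synaptotagmins, *Syt2*, the fast sensor of inhibitory and hindbrain synapses, had the largest difference. Its signal was 0.09 to 1.96 (median 1.15) in sham hippocampus and 1.61 to 3.52 (median 2.67) in sham cortex, lower in hippocampus in 12 of 12 animals of each arm, by -1.65 (SE 0.231, adjusted p = 8e-06) in sham and -1.10 (SE 0.237, adjusted p = 0.00108) in stimulated rats. A dimmer probe of *Syt2* differed by -1.56 and -0.85. *Syt4*, which lacks a functional calcium site in its first C2 domain and sits largely on dense-core vesicles, ranged from 6.29 to 6.68 in sham hippocampus and from 6.82 to 7.42 in sham cortex, without overlap, with differences of -0.72 (SE 0.064, adjusted p = 1.09e-08) and -0.67 (SE 0.065, adjusted p = 6.95e-08). *Syt1*, the fast sensor of most forebrain synapses, differed by -0.57 (adjusted p = 6.8e-05) and -0.49, and *Syt5* by -0.42 (adjusted p = 1.4e-05) and -0.28. All 4 of these genes were therefore lower in hippocampus. *Syt7*, a slow, high-affinity sensor linked to facilitation, went the other way, at 1.05 to 2.03 (median 1.30) in sham hippocampus and 0.43 to 1.42 (median 0.86) in sham cortex. It was higher in the hippocampus of 11 of 12 sham rats by 0.47 (SE 0.132, adjusted p = 0.00799) but not called in stimulated rats, at 0.21 (adjusted p = 0.26). *Syt11* and *Syt12* were not called, with sham differences of -0.03 and -0.28.

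*Otof* encodes otoferlin, a large multi-C2 protein known as the release sensor of inner hair cells. Its brightest probe ranged from 5.78 to 7.66 over the cortex arrays and from 5.97 to 7.74 over the hippocampus arrays, and was not called between regions, at 0.25 (SE 0.199, adjusted p = 0.36) in sham and 0.28 (adjusted p = 0.31) in stimulated rats. A dim second probe of *Otof* was called lower in hippocampus, by -1.32 (SE 0.162, adjusted p = 1.48e-06) and -1.23 (adjusted p = 5.93e-06). The *Otof* probes therefore disagree, and which of them reads the transcript was not tested. The probes of *Syngr1* (synaptogyrin-1, a vesicle membrane protein) also lay on opposite sides of 0: its brightest probe gave -0.27 in sham and -0.54 (adjusted p = 0.00473) in stimulated rats, and its second probe gave 0.34 (adjusted p = 0.0101) and 0.58 (adjusted p = 0.000107).

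Most of the vesicle membrane proteins also lay below 0. *Sv2b* differed by -0.58 (SE 0.094, adjusted p = 4.53e-05) in sham and -0.58 in stimulated rats, and *Sv2a*, the SV2 form found at nearly all synapses, by -0.30 (adjusted p = 0.0182) and -0.28 (adjusted p = 0.0321). The third paralog, *Sv2c*, best known from the basal ganglia, was not called, at 0.35 and 0.33, and was well above background on 10 of 12 sham and 11 of 12 stimulated cortex arrays. *Syngr3* differed by -0.33 (adjusted p = 0.0159) in sham rats, and *Syp* (synaptophysin, the most abundant vesicle membrane protein) was not called, at 0.18 and -0.19. Of the synapsins, *Syn2* was called in sham rats, at -0.26 (adjusted p = 0.0373), and *Syn1* in stimulated rats, at -0.47 (adjusted p = 0.0494); *Syn3*, the form of immature neurons, was called in neither, at -0.01 and -0.31, and was well above background on 6 of 12 arrays of either region in each arm.

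At the active zone, the scaffold proteins bassoon and the RIMs were lower in hippocampus. *Bsn* ranged from 8.06 to 8.80 (median 8.28) in sham hippocampus and from 8.44 to 9.34 (median 8.94) in sham cortex, lower in hippocampus in 11 of 12 rats by -0.61 (SE 0.105, adjusted p = 0.000104), and by -0.62 in stimulated rats. *Rims2* had sham values of 3.93 to 4.63 and 4.64 to 5.51 that did not overlap, and differed by -0.55 (adjusted p = 1.39e-05) and -0.36 (adjusted p = 0.0021), and *Rims1* by -0.46 (adjusted p = 0.0103) and -0.62 (adjusted p = 0.00121). The priming factor *Unc13a* (Munc13-1) and the bassoon relative *Pclo* (piccolo) were not called, at -0.03 and -0.15 in sham rats. Of the Rab3 GTPases, which mark vesicles for docking, *Rab3b* was lower in hippocampus, at 3.54 to 4.46 (median 4.12) against 4.36 to 5.06 (median 4.77) in sham rats, by -0.72 (SE 0.128, adjusted p = 0.000137) and by -0.48 (adjusted p = 0.00699) in stimulated rats. *Rab3a*, the main brain form, and *Rab3c* were not called, with sham differences of -0.19 and 0.03. The Rab3 effector *Rph3a* (rabphilin) differed by -0.62 (SE 0.176, adjusted p = 0.00854) and -0.72 (adjusted p = 0.00392), from a sham median of 5.93 in hippocampus and 6.52 in cortex. *Sncb* (beta-synuclein) was the only one of the 6 SNARE regulators and chaperones called, lower in the hippocampus of 12 of 12 sham rats by -0.63 (SE 0.128, adjusted p = 0.000512), and by -0.61 in stimulated rats. *Cplx1* (complexin-1) was lower in hippocampus in 11 of 12 sham and 10 of 12 stimulated animals, with median differences of -0.62 and -0.41, yet its sham mean was 0.03, since its spot in the cortex of 1 young sham rat was not well above background. None of *Cplx2*, *Nsf*, *Napb* and *Dnajc5*, nor the endocytic genes *Amph*, *Dnm1* and *Synj1*, was called in either arm.

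The vesicular glutamate transporters did not share the direction of the SNAREs. *Slc17a6* ranged from 4.14 to 5.39 (median 4.65) in the hippocampus of stimulated rats and from 3.60 to 4.03 (median 3.86) in their cortex, higher in hippocampus in 12 of 12 by 0.86 (SE 0.196, adjusted p = 0.00185). In sham rats it ranged from 2.58 to 5.13 in hippocampus and from 3.19 to 4.89 in cortex, was higher in hippocampus in 8 of 12 and was not called, at 0.24 (SE 0.192, adjusted p = 0.35). The sham hippocampi were thus more spread out, with 2 AU_Sham rats at 2.58 and 3.49 and a Y_Sham rat at 3.41. The change of the regional difference with stimulation was itself not called, at 0.52 in young (unadjusted p = 0.28) and 0.66 in aged rats (unadjusted p = 0.064). *Slc17a7* was not called, at 0.36 (adjusted p = 0.064) in sham and 0.08 (adjusted p = 0.72) in stimulated rats, although 10 of 12 sham rats were higher in hippocampus.

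**Figure D2:**
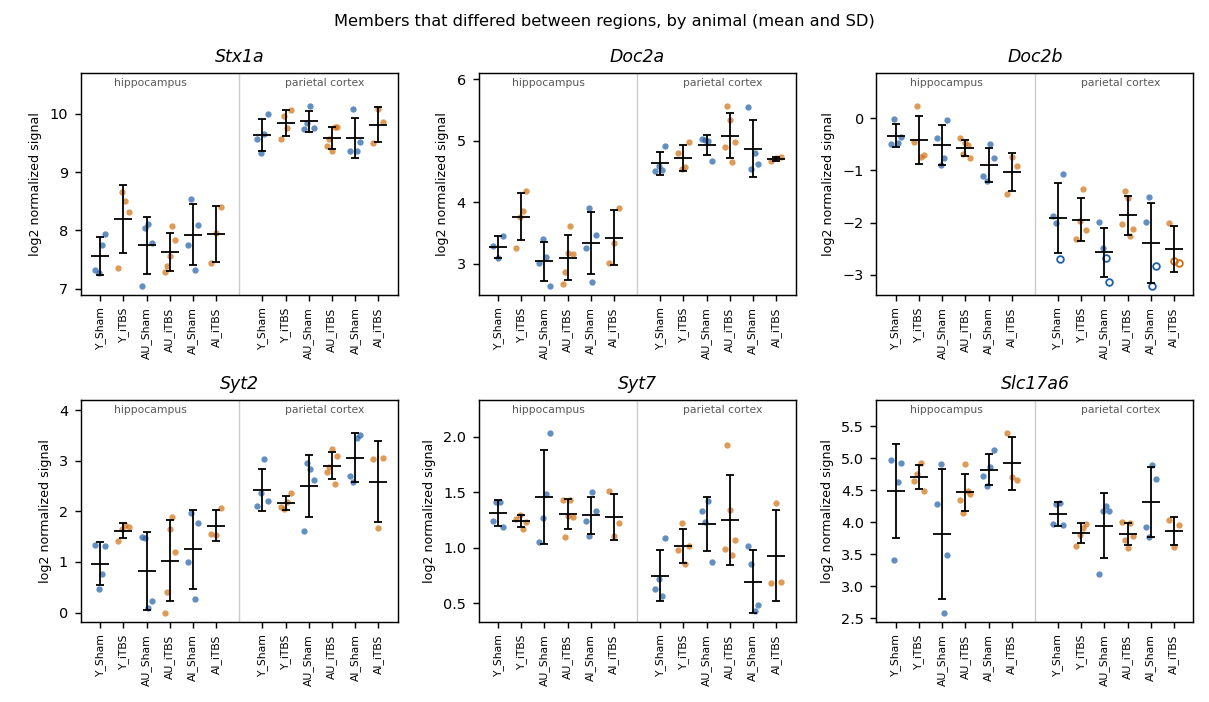
Log2 normalised signal of *Stx1a*, *Doc2a*, *Doc2b*, *Syt2*, *Syt7* and *Slc17a6* by group and region, where points are animals (blue sham, orange stimulated, open where the probe was not well above background) and bars give the mean and SD. The hippocampus values of *Stx1a* (7.05 to 8.65) lie below all cortex values (9.33 to 10.13), and the *Doc2a* and *Doc2b* panels show opposite steps between the regions.

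These differences were read in bulk tissue, where fewer cells of a type and less RNA per cell cannot be told apart, and the regions differed in their cell type markers as well. Of 12 inhibitory interneuron markers, 9 were called lower and 0 higher in sham hippocampus. The mean of that list in sham rats lay between 5.82 and 6.26 in hippocampus and between 6.41 and 6.87 in cortex. Of 12 oligodendrocyte and myelin markers 11 were called higher, of 9 choroid plexus markers 7 higher, and of 10 endothelial and blood markers 5 lower. General neuron markers were divided, with 2 called higher and 4 lower of 12 and a median of -0.17, close to the members' -0.19. Astrocyte markers gave 5 higher and 1 lower of 10, microglia markers 3 higher of 12 and thalamus markers 3 higher and 2 lower of 6. Of 11 hippocampus markers 8 were higher and 1 lower in the tissue labelled hippocampus, and of 11 neocortex markers 7 were lower and 3 higher. The part of these lists in the members' differences was not tested.

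The direction of every call was the same in the animals of the first scan batch alone and in those of the later batches alone, in both arms. The first batch kept 17 of the 20 sham calls (*Syn2*, *Vamp2* and *Rims1* were lost) and 11 of the 20 stimulated calls, and the later batches kept 10 and 10. With scan batch as a block 17 of the sham calls remained (*Sv2a*, *Rph3a* and *Rims1* were lost) and 15 of the stimulated ones (*Sv2a*, *Syn1*, *Vamp2*, *Rab3b* and *Rph3a* were lost). With the slide of the hippocampus array as a random block 14 of the sham calls remained, without *Syngr3*, *Sv2a*, *Syn2*, *Syt7*, *Vamp2* and *Rims1*, and 16 of the stimulated ones, without *Syngr1*, *Sv2a*, *Syn1* and *Vamp2*. The slide of the cortex array was not in that fit, so it cannot separate slide from region. The share of all probes that kept a call under these settings is not given, so these counts do not set the members apart from all probes. In sham rats *Stx1a* was -1.86 in the first batch and -2.15 in the later ones, and *Doc2b* 1.79 and 1.40. The size of the difference moved by more than 1.5 times between the batches for 7 of the 20 sham calls and 12 of the 20 stimulated calls. Among them were *Rph3a* (-0.49 and -1.09), *Syt2* (-1.88 and -1.06), *Sncb* (-0.57 and -0.91) and *Syt7* (0.54 and 0.20) in sham rats, and *Doc2a* (-1.10 and -1.85), *Rab3b* (-0.27 and -0.85) and *Bsn* (-0.80 and -0.45) in stimulated rats. Leaving out single animals ended the sham call of *Sv2a* without AU_Sham 1 (adjusted p = 0.05002) and that of *Syn2* in 7 of 24 cases, and in stimulated rats the calls of *Sv2a* in 4, *Vamp2* in 2 and *Syn1* in 18 of 24.

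A further 58 presynaptic genes outside the set, of which 54 were tested between regions, fell on both sides of 0: 16 were called higher and 18 lower in sham hippocampus, and 13 higher and 17 lower in stimulated hippocampus. The largest differences of the list included paralogs of the members. *Slc17a8* (VGLUT3, found in certain interneurons) was well above background on all 24 hippocampus arrays but on 1 of 12 sham and 0 of 12 stimulated cortex arrays. Against the lowest signals well above background in cortex it was at least 2.94-fold higher in the hippocampus of sham rats (adjusted p = 5.64e-09) and at least 3.16-fold in that of stimulated rats (adjusted p = 1.69e-08). *Rph3al* (a rabphilin-like protein) was higher by 1.97 in sham and by 0.89 (adjusted p = 0.085) in stimulated rats, from a cortex probe that was well above background on 3 of 12 sham and 7 of 12 stimulated arrays. *Cplx3* was lower by -2.29 and -1.86, *Dnm3* by -1.11 and -0.82, and *Rims4* by -1.03 and -0.75. *Unc13c* was higher by 0.70 in sham rats and not called in stimulated rats, at 0.31 (adjusted p = 0.18).

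Stimulation was compared with sham within each region in young, AU and AI rats and in aged rats as a whole (the mean of the AU and AI differences). None of the 43 genes was called in any of these comparisons by limma, where 0% of all probes were called in hippocampus in each and in cortex in young, aged and AI rats, and 0.0153% in AU cortex. The selection rule of the study's methods, rebuilt here on these arrays, passed between 13 and 56 probes per comparison and took none of the 43 by the probes read here; it is not the authors' own run of that rule. At an unadjusted p under 0.05, the genes numbered 2 in young, 1 in aged, 0 in AU and 2 in AI hippocampus, where 5.08%, 2.89%, 2.28% and 2.19% of all probes passed. In cortex they numbered 0 in young, 1 in aged, 0 in AU and 1 in AI rats, against 2.9%, 2.72%, 7.29% and 3.89% of all probes. The smallest adjusted p of the 43 genes in any of them was 0.646, in AU cortex.

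In young rats most of the genes had higher signals after stimulation in both regions. In hippocampus 37 of 43 were higher, with a median of 0.16 against -0.025 over all probes. The mean of the 43 genes was 4.89, 4.95, 4.89 and 4.98 in the Y_Sham hippocampi and 4.83, 5.18, 5.14 and 5.20 in the Y_iTBS hippocampi. Of the stimulated hippocampi 3 thus lay above all sham ones and 1 below all of them, and the low one was the only Y_iTBS animal scanned in a later batch. Within the first batch the median was 0.23 (38 of 43 higher), within the later batches it was -0.067 (18 of 43), and with batch as a block it was 0.11 (33 of 43). *Rims2* was 4.52, 4.28, 4.39 and 4.43 in Y_Sham and 4.55, 5.34, 4.57 and 4.52 in Y_iTBS hippocampus, a difference of 0.34 (SE 0.158, unadjusted p = 0.0446, adjusted p = 0.87), and without the animal at 5.34 it was 0.14. *Syt5* was 7.68, 7.81, 7.82 and 8.08 in Y_Sham and 7.68, 8.31, 8.38 and 8.32 in Y_iTBS, a difference of 0.33 (SE 0.155, unadjusted p = 0.0459, adjusted p = 0.87). *Stx1a* also had its Y_iTBS animal of the later batch among the sham values, with 7.33, 7.26, 7.74 and 7.93 in Y_Sham and 7.36, 8.65, 8.50 and 8.31 in Y_iTBS, and 0.64 (SE 0.308, unadjusted p = 0.0519); it was named after its values were seen. In these hippocampi 0 of 9 choroid plexus markers were higher after stimulation, with a median of -1.15 and 0 called, and the mean of that list was -0.26 to 1.16 in Y_Sham and -1.44 to -0.16 in Y_iTBS. Neuron markers were higher for 10 of 12 (median 0.11), inhibitory interneuron markers higher for 9 of 12 (median 0.16) and oligodendrocyte and myelin markers lower for 9 of 12 (median -0.068), with 0 called in each list. The part of these lists in the members' values was not tested.

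In young cortex 31 of 43 genes were higher after stimulation, with a median of 0.11 against -0.011 over all probes. The mean of the 43 was 5.01, 5.00, 5.08 and 5.01 in Y_Sham and 5.15, 5.21, 5.16 and 5.23 in Y_iTBS, so that the groups did not overlap. The mean of Y_Sham 4 includes its *Cplx1* spot at -2.17, which was not well above background. The rest of its group read 5.31 to 6.04 for that gene. A value like those would put the mean of Y_Sham 4 above the lowest Y_iTBS mean, so the lack of overlap rests on this spot. The median was 0.058 (23 of 43 higher) in the first batch and 0.12 (31 of 43) in the later ones, which hold a single Y_iTBS rat. *Syp* was 2.61, 2.76, 3.25 and 1.21 in Y_Sham and 3.23, 3.48, 3.24 and 3.01 in Y_iTBS cortex, a difference of 0.78 that fell to 0.36 without the Y_Sham animal at 1.21. *Pclo* was 3.30, 3.52, 2.67 and 1.77 in Y_Sham and 3.37, 3.14, 3.57 and 3.40 in Y_iTBS, a difference of 0.56 that fell to 0.21 without the same animal and was -0.039 in the later batches alone. That animal, Y_Sham 4, had the lowest *Syp*, *Pclo* and *Cplx1* of its group. Its cortex array also had the most spots left out as non-uniform or outlying, 1448, where the arrays ranged from 267 to 1448. In young cortex all 11 hippocampus markers tested were higher after stimulation (median 0.16), while 11 of 12 oligodendrocyte and myelin markers (median -0.028) and 9 of 12 inhibitory interneuron markers (median -0.054) were lower and neuron markers were divided, 6 to 6. None of these was called, and their part in the members' values was not tested.

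In aged rats the genes lay on both sides. In hippocampus 20 of 43 were higher after stimulation (median -0.037), 14 of 43 in AU (median -0.039) and 21 of 43 in AI rats (median -0.0034), and in cortex 17 (median -0.025), 23 (median 0.072) and 20 (median -0.04). More AU_iTBS than AU_Sham rats were scanned in the later batches. *Syn3* had the lowest unadjusted p of aged hippocampus, at -0.76 (SE 0.297, unadjusted p = 0.0184, adjusted p = 0.97; -0.46 without AI_Sham 3), and of AI cortex. In AI rats it was -2.84, -1.93, 0.01 and -2.42 in sham and -3.41, -3.05 and -2.56 in stimulated hippocampus, and -1.46, -2.34, -1.92 and -2.27 in sham and -2.72, -2.81 and -2.69 in stimulated cortex. The cortex groups did not overlap and the difference was -0.74 (SE 0.225, unadjusted p = 0.0035, adjusted p = 0.998), while that of hippocampus, -1.21 (unadjusted p = 0.013), was -0.61 without the sham animal at 0.01. *Syn3* was well above background on 0 of 3 AI_iTBS arrays and 2 of 4 AI_Sham arrays of either region, so that only a bound can be set. Taking the mean of all 4 AI_Sham arrays against the lowest signals well above background, it was 2.07-fold higher in hippocampus (adjusted p = 1), but 1.36-fold without the animal at 0.01. In cortex it was 1.56-fold higher, but 1.38-fold without AI_Sham 1. Both means include AI_Sham arrays that were not well above background. *Unc13a* was 2.20, 1.96, 2.55 and 2.25 in AI_Sham and 1.72, 1.80 and 1.96 in AI_iTBS hippocampus, with the 1.96 of AI_Sham just above that of AI_iTBS, and differed by -0.41 (unadjusted p = 0.0495, adjusted p = 1). *Rab3c* in AI cortex was 2.01, 2.03, 2.03 and 1.72 in sham and 1.96, 2.62 and 2.23 in stimulated rats.

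Of the AU rats, *Syngr3* in cortex was 7.85, 8.35, 8.44 and 8.62 in sham and 7.61, 7.34, 7.32, 8.50 and 8.22 in stimulated rats, a difference of -0.52, and *Doc2b* was -1.99, -2.49, -2.67 and -3.14 in sham and -2.02, -1.40, -1.53, -2.25 and -2.12 in stimulated rats, a difference of 0.71, with 2 of the 4 sham arrays well above background. In both genes the groups overlapped. In both regions AU_Sham 1 and AU_iTBS 1, 2 and 3, the first values listed, were scanned in the later batches, and the other AU rats in the first. The later-batch rats had the lowest *Syngr3* and the highest *Doc2b* values of the AU cortices. The group means of these genes thus mix stimulation with batch. In AU hippocampus *Slc17a6* was 4.28, 4.91, 2.58 and 3.49 in sham and 4.35, 4.14, 4.91, 4.49 and 4.44 in stimulated rats, a difference of 0.65 that was 0.24 without the animal at 2.58. *Slc17a7* there was 2.64, 2.98, 3.13 and 3.36 in sham and 2.52, 2.58, 2.37, 3.03 and 2.93 in stimulated rats, a difference of -0.34 and of -0.26 in all aged rats, the latter -0.13 without AI_iTBS 1. These AU values of *Slc17a7* also divided by batch, with the later-batch rats below all the others. *Rims1* differed by 0.32 in aged cortex. The brightest probe of *Otof* differed by 0.12 in young, -0.10 in AU and 0.11 in AI hippocampus and by -0.035, 0.10 and -0.058 in cortex, all within 1 SE (0.27 to 0.37) and with signs that turned under several other settings. The young and aged effects were also set against each other: 7 of 43 genes had a higher effect in aged than in young hippocampus (median -0.19) and 16 of 43 in cortex (median -0.096), with 0 called, where 0% of all probes were called in either. At an unadjusted p under 0.05 they were 1 in hippocampus (*Bsn*, -0.35) and 0 in cortex, against 4.6% and 3.2% of all probes. The members' mean in hippocampus was 5.02 in the first scan batch and 4.82 in the later ones. Those later batches hold Y_Sham 1 and 2, Y_iTBS 1, AU_Sham 1, AU_iTBS 1, 2 and 3, AI_Sham 1 and AI_iTBS 1. Stimulation and batch are thus partly mixed in the young and aged effects. Of the marker lists in that hippocampus comparison, neuron and inhibitory interneuron markers were lower for 9 of 12 each (medians -0.096 and -0.15), and oligodendrocyte and myelin markers higher for 11 of 12 (median 0.19) and choroid plexus markers for 9 of 9 (median 1.11), with 0 called. Their part was not tested.

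**Figure D3:**
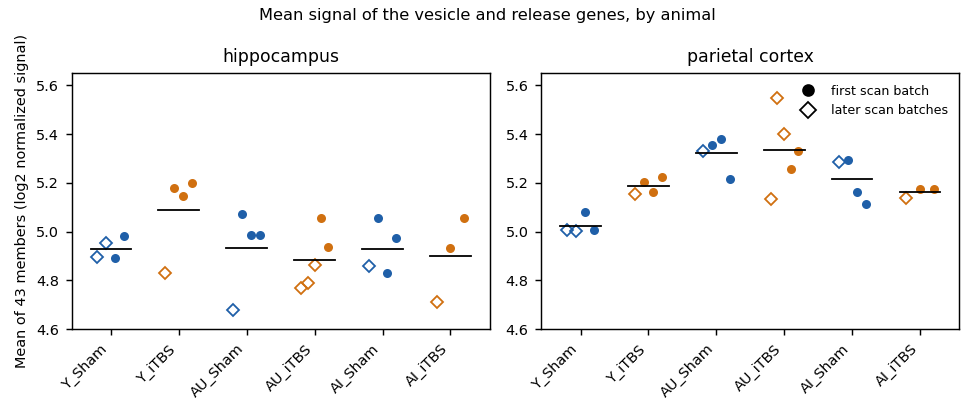
Mean log2 normalised signal of the 43 genes in each animal, by group, in hippocampus and in parietal cortex; dots are animals of the first scan batch, open diamonds animals of the later batches, and bars group means. In hippocampus 1 Y_iTBS animal of a later batch lies at 4.83 and the other 3 at 5.14 to 5.20, and in cortex the Y_Sham animals lie at 5.00 to 5.08, below every animal of the other groups. The cortex mean of Y_Sham 4 is lowered by a *Cplx1* spot at -2.17 that was not well above background, and lies below all of them only through that spot.

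Aged and young sham rats were compared in both regions. These comparisons use the Y_Sham animals that the young stimulation effects also use, so the values of each stand side by side and are not independent of each other. In cortex 37 of 43 genes were higher in aged sham rats, with a median of 0.21 against -0.017 over all probes; 0 were called, where 0.117% of all probes were, and 5 passed an unadjusted p under 0.05, as 9.98% of all probes did. The mean of the 43 genes was 5.12 to 5.38 in the 8 aged sham cortices and 5.00 to 5.08 in the 4 young ones. The young values include the mean of Y_Sham 4, lowered by a *Cplx1* spot at -2.17 that was not well above background. With a *Cplx1* value like the rest of its group, that mean would lie within the aged range. The median was 0.098 (29 of 43 higher) in the first batch and 0.31 (30 of 43) in the later ones, which hold a single rat each of AU_Sham and AI_Sham. Neuron markers were higher for 10 of 12, with a median of 0.19 and 0 called, and oligodendrocyte and myelin markers for 10 of 12, with a median of 0.18. The part of these in the members' shift was not tested.

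*Syp* was 3.14 to 3.73 in aged sham and 1.21 to 3.25 in young sham cortex, a difference of 0.95 (SE 0.325, unadjusted p = 0.0081, adjusted p = 0.35) that was 0.54 without Y_Sham 4. *Cplx1* was 5.62 to 6.43 in aged sham cortex and 5.33, 5.31, 6.04 and -2.17 in the young, and its difference of 2.45 (unadjusted p = 0.0158, adjusted p = 0.40) was 0.52 without that last animal, whose spot was not well above background. *Sncb* (0.42), *Amph* (0.32) and *Rab3c* (-0.31) were the others at an unadjusted p under 0.05. In hippocampus 23 of 43 genes were higher in aged sham rats (median 0.016), with 0 called where 0.00308% of all probes were, and 1 at an unadjusted p under 0.05 against 10.3% of all probes. That gene was *Bsn*, at 8.06, 8.13, 8.06 and 8.11 in Y_Sham, 8.13, 8.62, 8.66 and 8.80 in AU_Sham and 8.58, 8.23, 8.32 and 8.45 in AI_Sham. The 8 aged rats all lay above the young mean and above the highest young rat, by 0.39 on average (SE 0.108, unadjusted p = 0.0018, adjusted p = 0.35). Leaving out single animals gave *Bsn* differences of 0.35 to 0.46, and it was not called in 23 of 24 cases. It was called by limma only without AU_Sham 1, at 0.46 (adjusted p = 0.043). AU_Sham 1 is the aged animal nearest to the young ones, so its removal widens the difference by construction. The share of all probes called in that case is not given. *Amph* was next in hippocampus, at -0.26 (unadjusted p = 0.0512). The difference between regions was not called to depend on age for any of the 43 genes, where 0.00297% of all probes were, nor on stimulation in young or aged rats, where 0% were. At an unadjusted p under 0.05 the dependence on age took 4 of the 43 (*Amph*, *Syp*, *Cplx1* and *Syt12*, all with a lower difference in aged rats) and 6.85% of all probes, and that on stimulation 1 in young rats (*Rims2*, 0.42) and 0 in aged rats, against 2.87% and 2.34%.

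**Figure D4:**
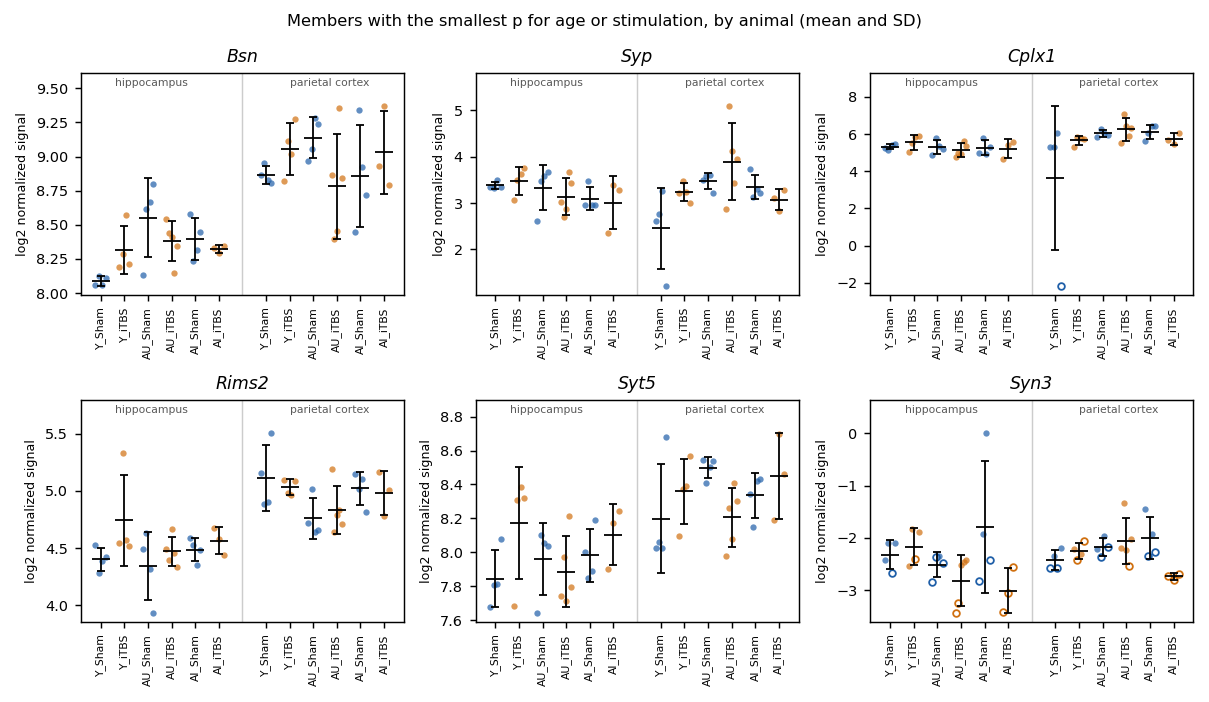
Log2 normalised signal of *Bsn*, *Syp*, *Cplx1*, *Rims2*, *Syt5* and *Syn3* by group and region, where points are animals (blue sham, orange stimulated, open where not well above background) and bars the mean and SD. *Bsn* in Y_Sham hippocampus lies at 8.06 to 8.13, *Cplx1* has 1 Y_Sham cortex at -2.17, and all *Syn3* points of AI_iTBS are open.

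Among aged sham rats, AI and AU animals were set against each other. In each region AU_Sham 2, 3 and 4 shared a slide and AI_Sham 2, 3 and 4 shared another, so in those rats cognitive status and slide cannot be told apart. Only AU_Sham 1 and AI_Sham 1 were on the same slide. In cortex 14 of 43 genes were higher in AI rats (median -0.13), 0 were called where 0% of all probes were, and 4 passed an unadjusted p under 0.05 against 6.22% of all probes: *Napb* (beta-SNAP, which recruits NSF to spent SNARE complexes), *Rims1*, *Syt7* and *Cplx2*, all lower in AI. *Napb* was 2.93, 3.38, 3.42 and 3.16 in AU_Sham and 3.11, 2.75, 2.25 and 2.16 in AI_Sham, a difference of -0.66 (SE 0.23, unadjusted p = 0.0098, adjusted p = 0.70), which was 0.18 in the later batches, where each group has 1 animal. *Rims1* was 3.69, 2.95, 3.13 and 2.65 in AU_Sham and 2.31, 2.99, 2.17 and 2.34 in AI_Sham, a difference of -0.65. Oligodendrocyte and myelin markers were higher in AI cortex for 11 of 12, with a median of 0.43 and 0 called, while inhibitory interneuron markers were lower for 10 of 12 (median -0.14) and neocortex markers for 8 of 11 (median -0.12), with 0 called, and their part in these values was not tested. In hippocampus 19 of 43 were higher in AI rats (median -0.046), with 0 called where 0% of all probes were and 1 at an unadjusted p under 0.05 against 3.98%. There choroid plexus markers were higher for 9 of 9 (median 1.02) and hippocampus markers lower for 10 of 11 (median -0.14), with 0 called. The 1 gene was *Slc17a6*, at 4.73, 4.56, 4.86 and 5.13 in AI_Sham beside the AU_Sham values above, a difference of 1.00 (SE 0.375, unadjusted p = 0.0146, adjusted p = 1) that was 0.59 without the AU_Sham animal at 2.58. *Rab3c* there differed by -0.24, at 2.44, 2.41, 2.21 and 2.15 in AU_Sham and 2.12, 2.00, 2.06 and 2.06 in AI_Sham, which did not overlap. The other presynaptic genes gave 0 calls in any stimulation, age or cognitive status comparison.

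**Figure D5:**
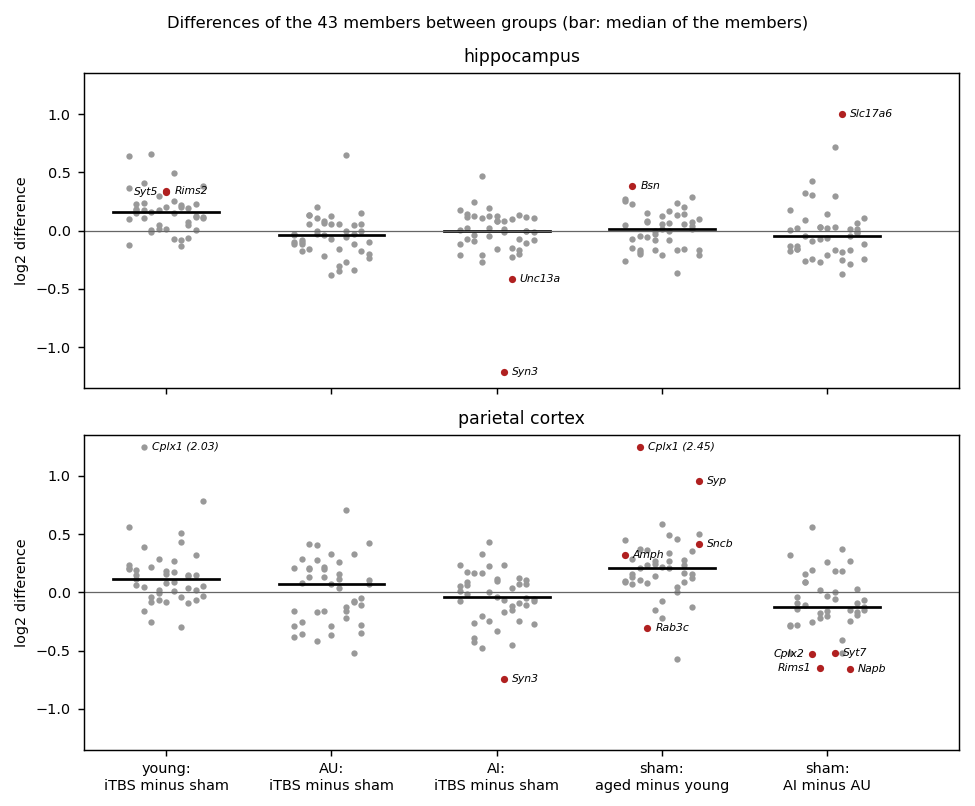
Differences of the 43 genes between groups on the log2 scale, for stimulation in young, AU and AI rats, for age and for cognitive status in sham rats, in hippocampus (top) and parietal cortex (bottom). Each point is a gene, bars are medians, and red points are genes at an unadjusted p under 0.05, none of which was called after adjustment; *Cplx1* lies beyond the axis at 2.03 and 2.45 in cortex.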

How the data were processed

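Total RNA from hippocampus and parietal cortex of 24 rats was hybridised by the authors to 1-colour Agilent arrays, and each deposited scanner file gives the processed signal intensity of every spot after background subtraction, with no normalisation between arrays. A deposited table of standard scores, one score for each feature and array, was used as an alternative. Samples were grouped by the array titles, and animal numbers are those of the labels; the study's methods count fewer aged rats for this experiment, which was not reconciled. The first array of each animal and region entered (48 arrays); 7 technical repeats entered alternatives only, and 1 array whose title and description name different animals was put in no group. The cortex repeat of AI_iTBS 2 was closer to AI_Sham 2 than to its own animal (r = 0.66 against 0.13 over 2000 variable probes). No column of another sample was present (0).

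Non-uniform and outlying spots were left out, copies of a probe were averaged, and the log2 intensity of each array was centred and scaled to a common SD (4.08), as the study's z-scores are. Probes were named through RefSeq accessions without versions; 45598 probes were read and 15 of the 43 genes had several probes. Probes well above background in at least 3 of 24 animals were tested with limma 3.58.1 in R 4.3.3: 6 group means within a region, and for regions the difference within each animal. P-values were adjusted by Benjamini-Hochberg over all probes tested. Of the members' values, 0 were saturated and 1 was missing. No depth applies to arrays; the number of animals (3 to 5 per group) limits the precision. The animals are separate rats, so p-values measure the spread between rats.

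Alternatives were 75th percentile scaling, quantile normalisation, the deposited scores, normexp (offset 50, run on the median spot signal, since no mean signal was given), other filters, the mean of all probes, averaged repeats, scan batch as a block and each part alone, slide as a random block, the replicate number as a block, and leaving out each animal. The scan batch block set the first batch against the later ones. Between regions the slide block used the slide of the hippocampus array alone. The fit was checked on simulated data. The genes described with values were the 8 largest regional differences called in each direction, the 2 smallest p-values of each stimulation, age and cognitive status comparison, *Otof*, and paralogs; other genes, and the distance limit on promoter windows, were chosen after values were seen. The members, the lists and the alternatives were chosen with earlier results of these data known.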

Additional observations from a re-analysis of the deposited data

Results flagged for a closer look

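In 9 of 159 sets of values (a gene or the mean of the 43 genes in a group and region), 1 animal stood apart from the other 3 by more than its group's spread allows at 95%; chance alone gives about 1 in 20. In hippocampus, *Rims2* was 5.34 in Y_iTBS 2 against 4.52 to 4.57 in the others, *Syt5* 7.68 in Y_iTBS 1 against 8.31 to 8.38, and *Otof* 7.12 in AI_Sham 2 against 6.38 to 6.48. The mean of the 43 genes was 4.83 in the hippocampus of Y_iTBS 1 against 5.14 to 5.20, and this animal is the only one of its group from a later scan batch. In cortex, *Doc2a* was 4.68 in AU_Sham 4 against 5.00 to 5.03, and *Sncb* 7.56 in the same animal against 7.94 to 8.01. *Rab3c* was 1.72 in the cortex of AI_Sham 4 against 2.01 to 2.03. *Cplx1* was -2.17 in the cortex of Y_Sham 4, not well above background, against 5.31 to 6.04. The mean of the 43 genes was 5.08 in the cortex of Y_Sham 3 against 5.00 to 5.01. Those others include Y_Sham 4, whose mean holds that *Cplx1* value. The cause of these values was not tested.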

How the results depend on the processing

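The share of all probes called under an alternative is not given in this section. The counts of members here therefore do not set the members apart from all probes. Counts of members called in the stimulation, age and cognitive status comparisons were 0 under each alternative run, except that leaving out single animals gave 0 to 1 for age in hippocampus. Between regions the counts were 11 (sham) and 10 (stimulated) in the later scan batches alone, which hold fewer animals. The members' medians moved most in those batches: -0.067 (young stimulation), 0.18 (AU stimulation), 0.047 (aged minus young stimulation) and 0.22 (AI minus AU) in hippocampus, -0.21 (aged minus young stimulation) and 0.31 (age) in cortex, -0.39 (sham) and -0.46 (stimulated) between regions, and -0.43 and -0.30 for the dependence of the regional difference on age and on young stimulation. In the first batch alone they were -0.069 (AU stimulation, cortex), 0.098 (age, cortex) and -0.020 (regional difference by age), and with slide as a block -0.037 (AU stimulation, cortex). The cortex median of AI minus AU was -0.030 under 75th percentile scaling, -0.030 under quantile normalisation and -0.029 under normexp. Leaving out single animals gave medians of -0.060 to 0.12 for AU stimulation in cortex (below 0 without AU_Sham 4, AU_iTBS 2 or AU_iTBS 3) and -0.19 to -0.052 for aged minus young stimulation in cortex. In young rats they ran from 0.12 to 0.25 in hippocampus and from 0.064 (without Y_Sham 1) to 0.19 (without Y_Sham 4) in cortex, and for aged minus young stimulation in hippocampus from -0.29 (without Y_iTBS 1) to -0.099 (without AI_iTBS 1). The medians nearest 0 turned sign: in hippocampus those of aged stimulation (-0.077 to 0.023), AI stimulation (-0.074 to 0.095), age (-0.020 to 0.050) and AI minus AU (-0.16 to 0.046, above 0 without AU_Sham 2 or AU_Sham 3), and in cortex that of aged stimulation (-0.067 to 0.019).

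In the later batches alone the sign turned for *Syt5* in young hippocampus (-0.061), *Pclo* in young cortex (-0.039), *Rab3c* in AI cortex (-0.046) and *Napb* between AI and AU cortex (0.18). Those batches hold a single rat each of Y_iTBS, AU_Sham, AI_Sham and AI_iTBS. These values, and those of *Otof* in the later batches, thus rest on single animals. *Otof* turned most often. In young hippocampus it was -0.00135 with the batch block and -0.93 in the later batches (-0.13 to 0.46 without single animals). In aged hippocampus it was -0.0012 under 75th percentile scaling, -0.014 under normexp and -0.0011 with the replicate block (-0.087 to 0.11). In AU hippocampus it was 0.037 with the mean of probes, 0.066 with the batch block, 0.0026 in the first batch, 0.15 in the later ones and 0.012 with the slide block (-0.24 to 0.019). In AI hippocampus it was -0.0021 with the mean of probes and -0.14 in the later batches (-0.074 to 0.32). In young cortex it was 0.16 with the mean of probes, 0.026 with the batch block, 0.90 in the later batches and 0.089 with the slide block (-0.24 to 0.077). In aged cortex it was -0.042 with the mean of probes, -0.030 with the batch block, -0.018 with the replicate block, -0.17 in the first batch and -0.14 with the slide block (-0.080 to 0.14). In AU cortex it was -0.054, -0.19 in the first batch and -0.23 with the slide block (-0.10 to 0.34), and in AI cortex 0.12 with repeats averaged and 0.075 in the later batches (-0.19 to 0.15). The cause was not tested.

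Replicate numbers did not pair the rats as a whole: deviations of same-numbered animals correlated at -0.26 to 0.37. The 3 AI pairs correlated at 0.12 to 0.37 in cortex but at 0.0035 to 0.36 in hippocampus, in the same animals. The replicate block left 0 members called in each comparison within a region, and in AI cortex the members' median was -0.067 and *Syn3* -0.76 (adjusted p = 0.98) with it. Without the animal as a pair, 22 (sham) and 21 (stimulated) members were called between regions.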
